A study of Homo sapiens with 4 samples.

Results

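Transcripts of 9 tight junction genes were followed in HGC-27 cells treated with recombinant human IL-17B (rIL-17B) or PBS. The genes were chosen by name: the claudins CLDN1, CLDN3, CLDN4, CLDN7 and CLDN18, the MARVEL-domain genes OCLN and MARVELD2, the adhesion molecule gene F11R and the scaffold gene TJP1. All 9 were found among the 31907 gene names of the series, with at least 1 count in 1 or more libraries. HGC-27 is a line of poorly differentiated human gastric cancer cells, and IL-17B is a cytokine of the interleukin-17 family that signals through the receptor IL-17RB. RNA was sequenced from 2 libraries of cells given PBS for 48 h and 2 libraries of cells given 200 ng/ml rIL-17B for 48 h, with no other agent or genetic change named for either group. By their labels all 4 libraries come from the same line, and nothing states that replicates were separate cultures. The p-values therefore measure the spread between these libraries, which may be technical.

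Tight junctions are the seals between neighbouring epithelial cells, in which claudins are joined into strands that close the gap or leave selective pores. Occludin and tricellulin sit in the same strands, junctional adhesion molecules hold the membranes together beside them, and ZO proteins on the inside of the membrane tie the strands to actin. In the stomach, claudin-18 is the claudin typical of the normal mucosa, and loss of epithelial junctions is a known feature of poorly differentiated carcinoma.

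The libraries held between 12888029 and 17555879 counts, so that 3 counts, taken as the smallest level that can be shown, equalled 0.171 to 0.233 counts per 1000000 counts of the library (CPM). The library labelled rIL-17B replicate 1 stood apart from the other 3. In it 10 mesenchymal markers summed to 1526 CPM, against 17747 to 20777 CPM elsewhere, and 10 epithelial markers summed to 2840 CPM, against 1283 to 1606 CPM. KRT8, DSP, KRT7 and KRT18 carried the epithelial sum, while KRT19 went the other way, with 1 count there and 43 to 58 elsewhere. 6 endothelial markers summed to 1.16 CPM there and to 22.6 to 35.7 CPM in the other libraries. All 10 mesenchymal markers had counts in every library, whereas 5 of the 6 endothelial markers did in each rIL-17B library, and KDR was at 0 in rIL-17B replicate 1. The labels give HGC-27 as the source but their library protocol speaks of monocytes. Whether rIL-17B replicate 1 holds the same cells as the other libraries was not tested. 8 monocyte markers summed to 8.62 to 11.2 CPM in the 4 libraries, but without CSF1R the other 7 summed to 0.479 CPM in rIL-17B replicate 1, with 4 at 0, and to 5.01 to 6.85 CPM elsewhere. None of 8 gastric epithelial markers averaged 1 CPM. The epithelial cadherin gene CDH1 had 7 to 11 counts per library, while the keratin gene KRT8 had 7880 to 21295. In bulk RNA, fewer cells of a type and less RNA per cell cannot be told apart.

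Among the 9 genes, the scaffold had the highest level in PBS. Divided by the length of each gene's exons, TJP1, which encodes ZO-1, reached 11.05 CPM per kilobase on average over the 2 PBS libraries. F11R, encoding the adhesion molecule JAM-A, followed at 1.87 CPM per kilobase, 5.90-fold lower. Among the chosen claudins, CLDN4 stood at 1.61 and CLDN1 at 1.06 CPM per kilobase, then CLDN7 at 0.442 and CLDN18 at 0.431. The lowest levels were those of MARVELD2 at 0.146, OCLN at 0.117 and CLDN3 at 0.0551 CPM per kilobase. The PBS library ranges overlapped between the neighbours CLDN7 and CLDN18 and between MARVELD2 and OCLN, and counting intervals overlapped between all neighbours in this order except TJP1 and F11R. TJP1 alone made up 81.8% to 84.7% of the counts of the 9 genes in the 4 libraries. By mean CPM it was higher than 94.7% of all names, CLDN4 higher than 66.1% and OCLN higher than 48.9%. In the library labelled rIL-17B replicate 1, CLDN1 was eighth of 9 per kilobase, at 0.0187 CPM per kilobase, whereas in rIL-17B replicate 2 it was the fourth, at 0.871. Counting intervals of MARVELD2, OCLN, CLDN1 and CLDN3 overlapped in rIL-17B replicate 1, so their order there is not resolved. In rIL-17B replicate 2 the interval of CLDN1 overlapped those of its neighbours CLDN4 and CLDN7.

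**Figure D1:**
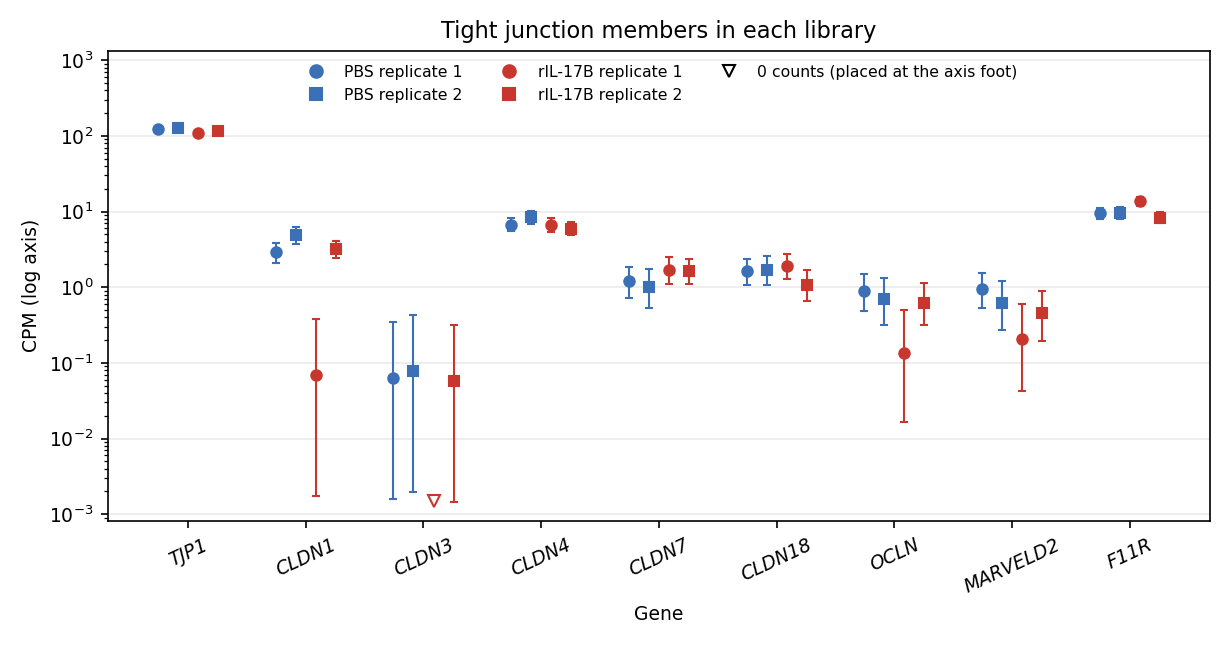
CPM of the 9 genes (log axis) in each of the 4 libraries, with points for the libraries, bars for exact Poisson 95% intervals of the count, and an open triangle at the foot of the axis for 0 counts. TJP1 lies between 109 and 127 CPM in all 4 libraries, while CLDN1, OCLN and MARVELD2 are lowest in rIL-17B replicate 1.

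The first question was whether rIL-17B altered these transcripts. None of the 7 genes of the set that could be tested was called by the quasi-likelihood test of edgeR (p adjusted by Benjamini-Hochberg), and 0% of the 16361 genes tested were called. None of the 7 had an unadjusted p under 0.05 in edgeR, which 226 genes or 1.38% of all tested had. DESeq2 also called 0 genes, with 457 at an unadjusted p under 0.05. CLDN3 and MARVELD2 had too few counts to be tested. Of the 7 log2 fold changes of rIL-17B over PBS, 2 were above 0 and 5 below, with a median of -0.24, beside a median of -0.03 over all genes tested. Since exact two-sided permutation p-values of such a 2 against 2 design start at 0.333, none was computed for single genes.

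Claudin-1, a barrier-forming claudin encoded on chromosome 3 (190305701 to 190322475 on GRCh38, minus strand), was the member in which the 2 rIL-17B libraries were farthest apart. CLDN1 had 46 and 63 counts in the PBS libraries, 1 count in rIL-17B replicate 1 and 56 counts in rIL-17B replicate 2. In CPM these were 2.89, 4.89, 0.0684 and 3.19. Thus 1 treated library lay far below PBS while the other lay between the PBS libraries. Group means (± SD, n = 2 each) were 3.89 ± 1.41 CPM for PBS and 1.63 ± 2.21 CPM for rIL-17B, and the log2 fold change of -1.25 had a standard error of 1.58 (adjusted p = 0.719, edgeR). Relative to the pooled PBS libraries, CLDN1 in rIL-17B replicate 1 stood at a ratio of 0.0181 with a 95% counting interval of 0.000453 to 0.103. Its 1 count there was below the 3 counts taken as the smallest level that can be shown, so the ratio itself is imprecise. In rIL-17B replicate 2 the ratio was 0.843 (0.599 to 1.17). The PBS libraries also differed from each other beyond counting error for this gene, with a ratio of 1.69 (1.14 to 2.53). Such intervals cover counting error only, because reads amplified by PCR need not stem from separate molecules.

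Claudin-4 and claudin-3 are encoded by neighbouring genes on chromosome 7, 29.3 kb apart. CLDN4 (73799542 to 73832693, plus strand) had 107 and 108 counts under PBS, against 97 and 104 under rIL-17B. Its CPM values were 6.73 and 8.38 under PBS, against 6.64 and 5.92 under rIL-17B, so the groups did not overlap, though the nearest libraries were almost level. The log2 fold change was -0.34 with a standard error of 0.243 (adjusted p = 0.661, edgeR). CLDN3 (73768997 to 73770270, minus strand) had 1 count in both PBS libraries, 0 in the first rIL-17B library and 1 in the second, all below the level that can be shown. For the 0 in rIL-17B replicate 1, 3 counts would be 0.205 CPM, and the exact Poisson 95% upper limit was 0.252 CPM. The 2 neighbours therefore had unlike levels in every library, at 1.61 and 0.0551 CPM per kilobase with PBS.

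Claudin-7, which is found along the sides of epithelial cells as well as in tight junctions, was the one tested member whose rIL-17B values both lay above PBS. CLDN7 (chromosome 17, 7259903 to 7263983, minus strand) had 19 and 13 counts under PBS, against 25 and 29 under rIL-17B, or 1.19 and 1.01 CPM against 1.71 and 1.65 CPM. The groups did not overlap, and the treated libraries were closer to each other than the PBS libraries were. The log2 fold change of 0.53 had a standard error of 0.345 (adjusted p = 0.661, edgeR), and the counting intervals of both treated libraries against pooled PBS included a ratio of 1. The 3' end of CLDN7 overlaps ELP5, a gene on the opposite strand with 402 to 638 counts per library. ELP5 ends at base 7259940, so the overlap is a short stretch of the 2492 exon bases of CLDN7. AC003688.1, annotated on the same strand from 7246829 to 7262089, also overlaps CLDN7 and had 0 counts in every library. How reads shared between such genes were counted is not given. The use of strand in counting is not given in the sources used here.

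Claudin-18, the claudin of gastric mucosa, was detected at a low level in all 4 libraries. CLDN18 (chromosome 3, 137998735 to 138033655, plus strand) had 26 and 22 counts under PBS, against 28 and 19 under rIL-17B. One treated library was above and the other below both PBS libraries. Means (± SD, n = 2 each) were 1.67 ± 0.0511 CPM for PBS and 1.499 ± 0.589 CPM for rIL-17B, with a log2 fold change of -0.24 and a standard error of 0.406 (adjusted p = 0.763, edgeR), which became 0.062 without rIL-17B replicate 2. Counts per gene name do not separate the transcripts of CLDN18 that start at its lung-type and stomach-type first exons.

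Occludin, the first strand protein to be described, and tricellulin, which seals the corners where several cells meet, both carry a MARVEL domain. Their genes lie 48.0 kb apart on chromosome 5, and both had few counts. OCLN (69492292 to 69558104, plus strand) had 14 and 9 counts with PBS, 2 in the first rIL-17B library and 11 in the second, or 0.880, 0.698, 0.137 and 0.627 CPM. Both treated libraries were below PBS, rIL-17B replicate 2 only slightly. The 2 counts of rIL-17B replicate 1 were below the level that can be shown. The ratio to pooled PBS was 0.171 (95% counting interval 0.0196 to 0.693) for rIL-17B replicate 1, compared with 0.784 (0.345 to 1.67) for rIL-17B replicate 2, and the log2 fold change of -1.05 had a standard error of 0.875 (adjusted p = 0.662, edgeR). OCLN has a near-identical pseudogene copy on the same chromosome whose reads the counting could have shared, so its count is uncertain.

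MARVELD2 (69415065 to 69444330, plus strand), the gene of tricellulin, had 15 and 8 counts with PBS, 3 in the first rIL-17B library and 8 in the second. In CPM these were 0.943, 0.621, 0.205 and 0.456. Both treated libraries were again below PBS, with rIL-17B replicate 1 the lower. The ratio to pooled PBS was 0.257 (0.0494 to 0.851) for rIL-17B replicate 1, compared with 0.570 (0.221 to 1.32) for rIL-17B replicate 2.

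JAM-A, an immunoglobulin-like adhesion molecule at the apical end of the lateral membrane, was encoded by the one member that lay above PBS beyond counting error in rIL-17B replicate 1. F11R (chromosome 1, 160995211 to 161021348, minus strand) had 150 and 123 counts with PBS, 200 in the first rIL-17B library and 146 in the second, or 9.43, 9.54, 13.7 and 8.32 CPM. The PBS libraries were nearly equal and the treated libraries lay on either side of them. The ratio to pooled PBS was 1.44 (1.197 to 1.74) for rIL-17B replicate 1, compared with 0.877 (0.712 to 1.08) for rIL-17B replicate 2. Over both, the log2 fold change was 0.13 with a standard error of 0.285 (adjusted p = 0.815, edgeR), and it was -0.19 without rIL-17B replicate 1. AL591806.3, annotated on the same strand from 160997957 to 161038962, overlaps F11R and had 0 counts in every library. How reads in the shared stretch were counted is not given.

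ZO-1, the scaffold that binds claudins, occludin and JAM-A through separate domains, was the most evenly expressed member. TJP1 (chromosome 15, 29699367 to 29968865, minus strand) had 1939 and 1636 counts under PBS, against 1600 and 2066 under rIL-17B, or 122 and 127 CPM against 109 and 118 CPM. Both treated libraries were below both PBS libraries, by little. The log2 fold change was -0.20 with a standard error of 0.127 (adjusted p = 0.661, edgeR). Its counts were high enough for a narrow interval, and the ratio to pooled PBS was 0.882 (0.831 to 0.935) for rIL-17B replicate 1, compared with 0.948 (0.897 to 1.00) for rIL-17B replicate 2. A processed pseudogene on the opposite strand inside TJP1, HMGN2P5, had 54 to 159 counts. Over the 4 libraries, the genes whose pattern was most like that of TJP1 were NEK6, SMAD4 and SCAF1, with distances of 0.00913, 0.0185 and 0.0187 between centred log2 values. The median distance over the 16360 other genes tested was 0.547. The nearest of so many genes over 4 values are close by selection, so these distances are a description only.

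The 9 genes thus differed in how they were placed in the library that stood apart. In rIL-17B replicate 1, the counting interval against pooled PBS excluded a ratio of 1 for 5 of the 9, below it for CLDN1, OCLN, MARVELD2 and TJP1 and above it for F11R. Of the 7 members tested these were 3 below and 1 above, while 33% of all genes tested lay below and 39.8% above in the same way. In rIL-17B replicate 2 the interval excluded 1 for 0 of the 7, against 16.3% of all genes tested below and 17.7% above. Between the PBS libraries it did so for CLDN1, with PBS replicate 2 the higher, as for 12.6% of all genes tested, and for no member in the other direction, against 7.92%. With 0.5 CPM added, CLDN1 and OCLN were 2-fold or more below the PBS mean in rIL-17B replicate 1, which makes 2 of the 7 members tested against 18.6% of all genes tested. None of the 7 was 2-fold above it, against 2.61%. In rIL-17B replicate 2 none was 2-fold away in either direction, against 0.575% of all genes below and 0.0611% above. Mesenchymal, endothelial and epithelial markers moved in the same library, as given above, and their part in these values was not tested.

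Separation of the groups was read against the share of all genes that showed it. Among the 7 tested, CLDN7 had both treated libraries above both PBS libraries, which 31.5% of all genes tested had (28.5% on TMM-scaled CPM). CLDN4, OCLN and TJP1 had both below, as did 27.5% of all genes tested (30.4% on TMM-scaled CPM), and the same 4 genes separated on that scale. Only CLDN1 had group means 2-fold apart with 0.5 CPM added, lower with rIL-17B, as did 8.33% of all genes tested. Only 0.165% were higher by that much. That count rested on the CPM added: with 1 CPM added it was 0 of 7, against 6.06% of all genes tested lower and 0.0306% higher. With none added it was 2 of 7, CLDN1 and OCLN, both lower, against 11.9% lower and 0.984% higher, and the untested CLDN3 and MARVELD2 were also lower.

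Leaving out rIL-17B replicate 1 left 1 treated library, assumed to vary like the PBS libraries. Then 504 genes or 2.95% of those tested were called by edgeR after Benjamini-Hochberg adjustment, and 0 of the 8 members tested were, against 2.3% called lower and 0.643% called higher. CLDN1 then had a log2 fold change of -0.27 with a standard error of 0.327 (adjusted p = 0.805, edgeR) and TJP1 one of -0.08 with a standard error of 0.0896 (adjusted p = 0.767, edgeR). With rIL-17B replicate 1 as the only treated library, 55.1% of all genes tested were called by edgeR, 31.9% as lower and 23.2% as higher, and 3 of the 8 members were called, all lower. An unadjusted p under 0.05 in edgeR was found there for 5 of the 8 members and 58.8% of all genes tested. The 3 called members were CLDN1 at a log2 fold change of -5.77, OCLN at -2.60 and TJP1 at -0.32. The 5 also included MARVELD2 at -2.04 and, in the other direction, F11R at 0.39. The calls rest on that library, in which CLDN1 with 1 count and OCLN with 2 were below the level that can be shown.

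Stretches upstream of 4 members are printed as examples with and without an E-box spelling, from CLDN1 and MARVELD2, at ratios of 0.0181 and 0.257 to pooled PBS in rIL-17B replicate 1, and from CLDN18 and TJP1, at 1.15 and 0.882. OCLN, at 0.171 and with the spelling in 2 of 2 windows, is not printed. The 4 genes were picked by name, and the windows of CLDN18 and TJP1 for holding a match. The examples therefore show nothing about a relation between the spelling and the ratios. Sequences are from RefSeq on GRCh38.p14, on the strand of the gene, up to 250 bases before an annotated start, and stop where GENCODE 29 places a UTR or coding exon. Capitals mark CAGGTG or its reverse complement CACCTG, the E-box spelling that Snail and ZEB repressors are known to bind.
CLDN1, chr3:190322476-190322696, minus strand: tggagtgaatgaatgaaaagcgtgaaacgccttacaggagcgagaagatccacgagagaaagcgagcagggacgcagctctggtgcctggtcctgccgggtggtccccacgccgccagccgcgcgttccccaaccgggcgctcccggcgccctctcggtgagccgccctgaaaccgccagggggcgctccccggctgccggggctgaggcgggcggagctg
MARVELD2, chr5:69414866-69415064, plus strand: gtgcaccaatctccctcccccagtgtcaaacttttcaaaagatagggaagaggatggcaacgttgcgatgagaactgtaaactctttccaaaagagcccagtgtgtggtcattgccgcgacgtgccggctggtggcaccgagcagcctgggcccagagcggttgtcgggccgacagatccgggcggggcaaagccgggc
CLDN18, chr3:137998566-137998734, plus strand: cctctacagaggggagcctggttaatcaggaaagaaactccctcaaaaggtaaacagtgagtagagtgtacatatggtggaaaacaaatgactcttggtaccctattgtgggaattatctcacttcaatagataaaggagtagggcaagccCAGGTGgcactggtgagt
TJP1, chr15:29969050-29969299, minus strand: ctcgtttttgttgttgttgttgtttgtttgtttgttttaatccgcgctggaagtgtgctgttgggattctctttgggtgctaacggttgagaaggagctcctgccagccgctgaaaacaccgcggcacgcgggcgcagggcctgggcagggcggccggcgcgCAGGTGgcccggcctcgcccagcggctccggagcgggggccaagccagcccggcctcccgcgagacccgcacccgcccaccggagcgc
The match begins 99 bases before the RefSeq start in CLDN18 and 88 bases before it in TJP1. Those starts differ from the GENCODE gene coordinates given above, and in CLDN18 the GENCODE gene begins 81 bases upstream of the RefSeq start. These letters are not in the windows shown for CLDN1 and MARVELD2. The other CLDN18 window, chr3:138009915-138010164, lies downstream of the printed one and held no match. The printed CLDN18 stretch was not assigned to the lung-type or the stomach-type first exon. Of 14 upstream windows of 250 bases found for 8 members (F11R had no entry), 5 windows of 4 members held CAGGTG or CACCTG, namely 1 of 2 windows of CLDN7, 1 of 2 of CLDN18, 2 of 2 of OCLN and 1 of 4 of TJP1, as did 17.5% of 35116 such windows in the table. The spelling GGGCGG or CCGCCC, that of a GC box, was in 9 of the 14 and in 42.6% of all. A match describes the letters and is not evidence of binding.

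Among the other claudins, the most abundant was also the one farthest from PBS in rIL-17B replicate 1. CLDN11, known from myelin and from the Sertoli cell barrier, was the most abundant claudin at 49.7 CPM per kilobase with PBS. It had 3184 and 2200 counts with PBS, 13 in the first rIL-17B library and 2899 in the second, and thus made up 67.9% to 74.3% of all claudin counts in 3 libraries and 1.33% in the library that stood apart. CLDN5, the claudin of endothelial barriers, had 85 and 68 counts under PBS, against 1 and 80 under rIL-17B. For both genes rIL-17B replicate 2 was close to PBS, and the log2 fold changes of -1.17 for CLDN11 and -1.20 for CLDN5 had standard errors of 2.07 and 1.67 (adjusted p = 0.775 and 0.735, edgeR).

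The 4 remaining claudins outside the set with at least 10 counts in a library did not lie far below the others in rIL-17B replicate 1. CLDN12, an atypical claudin, had 587 and 506 counts under PBS, against 549 and 610 under rIL-17B, and CLDN15, which forms cation pores, had 196 and 230 against 225 and 222. The PBS libraries differed beyond counting error for CLDN15, at 12.3 and 17.8 CPM, with a ratio of 1.45 (1.19 to 1.76). CLDN20 had 8 to 16 counts and CLDN23 had 9 to 19. For CLDN12, CLDN15 and CLDN20 the first rIL-17B library lay within the CPM range of the other 3, and for CLDN23 it was slightly above, at 1.23 against at most 1.08 CPM. Without CLDN11, all claudins together summed to 69.3 and 80.8 CPM under PBS, against 66.2 and 67.2 CPM under rIL-17B.

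**Figure D2:**
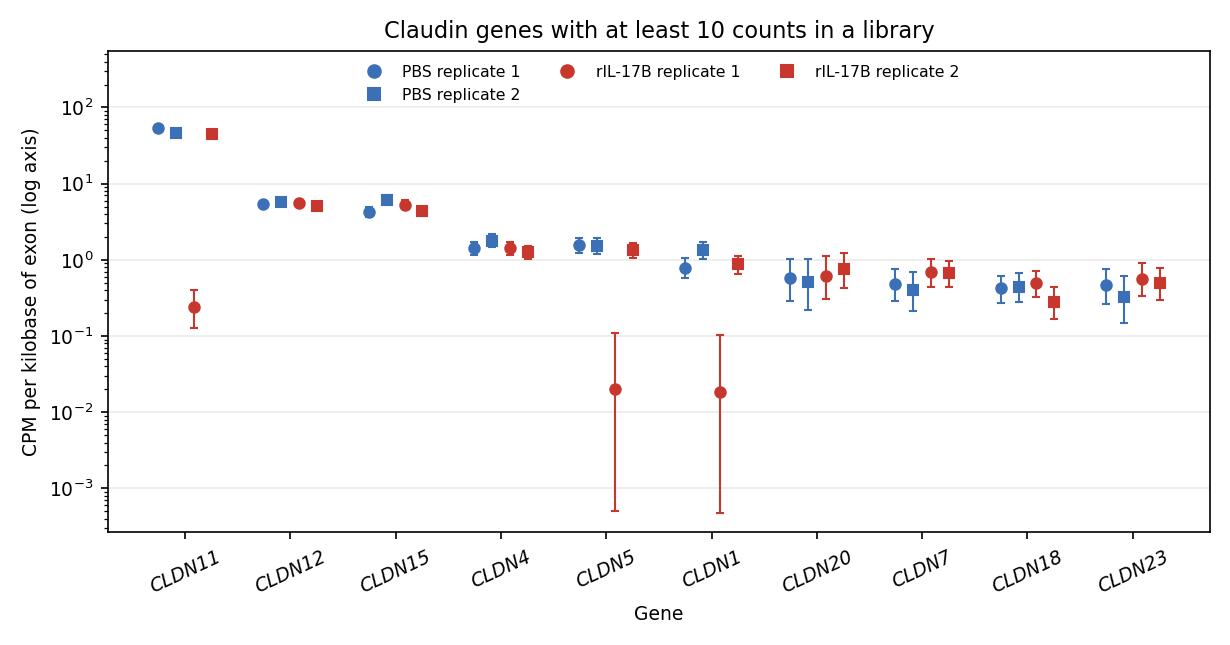
CPM per kilobase of exon (log axis) of the 10 claudin genes with at least 10 counts in a library, with points for the 4 libraries and bars for exact Poisson 95% intervals of the count. CLDN11, CLDN5 and CLDN1 lie far below the other libraries in rIL-17B replicate 1, and the other 7 lie near them.

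Of 59 other tight junction genes (18 claudins, 12 other membrane proteins and 29 scaffold and polarity proteins), 41 were tested, and edgeR called 0 after adjustment, with 0 at an unadjusted p under 0.05 and 0 called by DESeq2. Their log2 fold changes were above 0 for 17 and below 0 for 24, with a median of -0.18. Outside the claudins, CXADR and PARD6G were among those with the smallest unadjusted p. CXADR, an adhesion molecule and virus receptor of the junction, measured 23.9 and 20.6 CPM under PBS, against 39.9 and 25.9 CPM under rIL-17B. Both treated libraries lay above PBS and rIL-17B replicate 1 was the higher, with a log2 fold change of 0.48 and a standard error of 0.230 (adjusted p = 0.661, edgeR). PARD6G, a polarity protein of the PAR complex, measured 6.04 and 7.06 CPM under PBS, against 1.51 and 3.93 CPM under rIL-17B, at a log2 fold change of -1.30 with a standard error of 0.608 (adjusted p = 0.661, edgeR).

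The 5 most abundant of these scaffold and membrane genes were YBX3, ARHGEF2, PRKCI, SYMPK and AMOTL2, most of them with other roles besides the junction. YBX3, a nucleic acid binding protein that ZO-1 holds at the junction, measured 176 and 167 CPM under PBS, against 207 and 180 CPM under rIL-17B. ARHGEF2, an exchange factor for RhoA, measured 135 and 137 CPM under PBS, against 78.5 and 129 CPM under rIL-17B. Again rIL-17B replicate 2 was the nearer to PBS. PRKCI, the atypical protein kinase C of the polarity complex, measured 96.5 and 94.4 CPM under PBS, against 124 and 103 CPM under rIL-17B, while SYMPK, better known for RNA 3' end processing, had 84.1 and 92.6 against 123 and 92.4 CPM. AMOTL2, an angiomotin family scaffold, measured 93.6 and 97.6 CPM under PBS, against 77.3 and 89.9 CPM under rIL-17B.

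**Figure D3:**
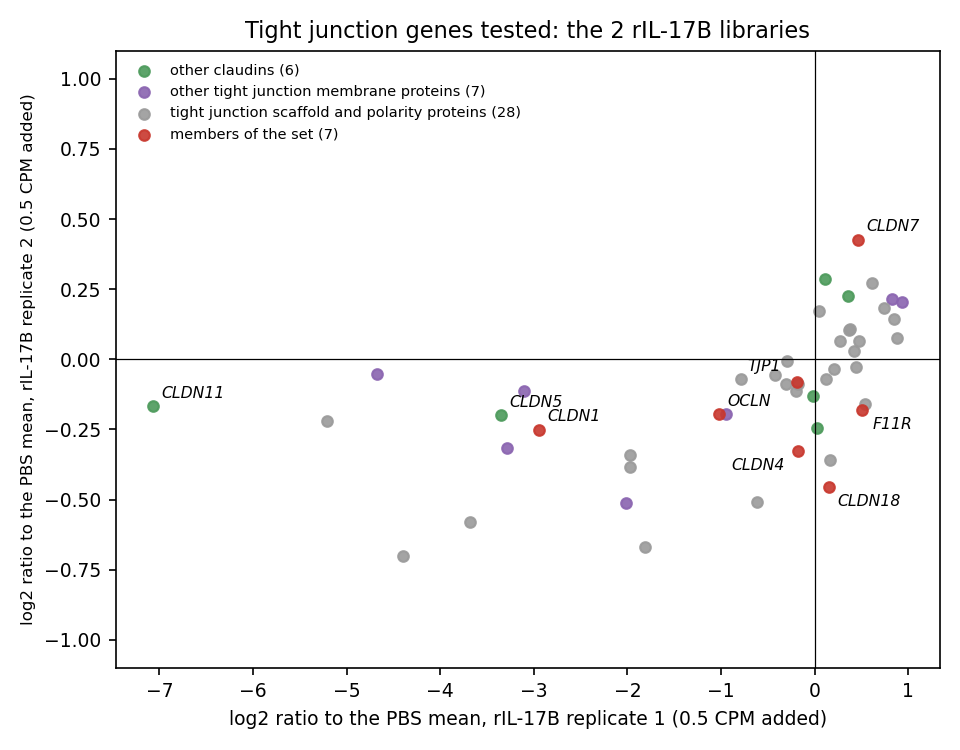
Log2 ratio of each tested tight junction gene to the PBS mean (0.5 CPM added) in rIL-17B replicate 1 (horizontal axis) and rIL-17B replicate 2 (vertical axis, on a narrower scale), with 1 point per gene, coloured by list. Points spread from -7.06 to 0.94 along the horizontal axis and from -0.70 to 0.43 along the vertical axis.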

How the data were processed

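The 4 libraries were prepared by Smart-seq2 (oligo-dT priming, PCR amplification). The authors deposited counts, whole numbers of reads per gene name without normalization, in which genes at 0 are not listed. The submitters' processing notes name Bowtie2 2.2.3, HISAT2 2.1.0, TopHat2 and HTSeq 0.6.0 with no roles; the annotation and use of strand are not given in the sources used here. Of 83 to 98 repeated names per library 1 entry was kept, and 22 to 25 date-like names were left out (at most 0.244% of counts). CPM is a count over its library total. Groups came from the labels. The test was that of edgeR 4.0.16 under R 4.3.3 (TMM, filterByExpr, quasi-likelihood, Benjamini-Hochberg adjustment over 16361 genes, threshold 0.05, all 4 libraries, no block). It was checked on simulated counts that varied like the PBS libraries, with 4-fold changes shared by both treated libraries. That check does not show how the test performs when the treated libraries are as unlike as here. Counting intervals are exact 95% intervals. Coordinates and exon lengths are from GENCODE 29 (GRCh38). Alternatives were DESeq2 1.42.0, other scalings, filters, lengths, added CPM, a replicate block and leaving out each library. The members and gene lists, the latter written by hand from general knowledge, were chosen with earlier results of these data known. All members were named, as were claudins with at least 10 counts in a library, and of the other lists the 5 most abundant genes, the 3 of smallest p outside the claudins, and the 3 most like TJP1; 1 gene that this rule names is not reported here. Other tight junction genes, CDH1, KRT18, KRT19, ELP5, ESRP1, ESRP2 and HMGN2P5 were named after their values were seen where they fall outside this rule.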

Additional observations from a re-analysis of the deposited data

How the results depend on the processing

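No member was called by edgeR or DESeq2 under any other scaling, filter, threshold or the replicate block, and 47 of 47 log2 fold changes of members kept their direction and side of the threshold there. Genes at an unadjusted p under 0.05 ranged from 161 to 879 over these settings. Leaving out 1 library in turn gave 0 to 9489 genes called by edgeR, with 504 when rIL-17B replicate 1 and 9489 when rIL-17B replicate 2 was omitted, 0 to 3 members called, 0 to 5 members with an unadjusted p under 0.05 and 0 to 29 other tight junction genes called. The lone treated library was assumed to vary like the PBS libraries. Without rIL-17B replicate 1, log2 fold changes were -0.58 for CGNL1, -0.74 for MAGI2 and -0.34 for AMOTL1. These were the other tight junction genes called there, and they were named after their values were seen. Among the 42 other tight junction genes tested there, 14 were above 0. Without rIL-17B replicate 2, 42 were tested as well, and 17 were above 0. The shares of all genes called in these fits, given above, are the background for the calls. Of 28 such log2 fold changes of members, 23 kept direction and side, 3 became called and 2 changed direction: CLDN18, from -0.62 to 0.062 over the omissions, above 0 without rIL-17B replicate 2, and F11R, from -0.19 to 0.39, below 0 without rIL-17B replicate 1. With the longest transcript as the length, levels in PBS were 0.573 for CLDN7, 0.475 for CLDN18, 15.7 for TJP1 and 1.96 CPM per kilobase for F11R. Members with group means 2-fold apart, of all 9, numbered 4 with no CPM added and 0 with 1 CPM added; the shares of all genes are given above. The cause of these shifts was not tested. The replicate block gave 0 calls, with 173 genes at an unadjusted p under 0.05. Libraries with the same number deviated together with a correlation of 0.08, which with 2 numbers does not show pairing. OCLN, MARVELD2 and CLDN3 had at most 15 counts in a library, which limits the precision of their ratios.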

Other observations

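Of 20 genes known as regulators of epithelial genes (18 transcription factors and the splicing regulators ESRP1 and ESRP2), 18 had a count and 11 averaged at least 1 CPM. The 3 highest were ZEB1, KLF4 and ZEB2. ZEB1, a repressor of epithelial genes, had 116 and 123 CPM with PBS, 29.6 CPM in rIL-17B replicate 1 and 93.8 CPM in rIL-17B replicate 2. ZEB2, its relative, measured 60.6 and 60.2 CPM under PBS, against 9.78 and 50.3 CPM under rIL-17B. KLF4, a factor of epithelial differentiation, measured 43.2 and 45.2 CPM under PBS, against 63.3 and 48.4 CPM under rIL-17B. ZEB1 and ZEB2 were thus lowest, and KLF4 highest, in rIL-17B replicate 1. Among the members, CLDN1, CLDN3, OCLN, MARVELD2 and TJP1 were lowest in that library, CLDN7, CLDN18 and F11R were highest, and CLDN4 was neither. A relation between these regulators and the members was not tested. None of the 3 regulators was called by edgeR after Benjamini-Hochberg adjustment (adjusted p = 0.661 for ZEB1, 0.663 for ZEB2 and 0.661 for KLF4).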
